A study of Mus musculus with 12 samples.

Results

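The genes described here encode the protein parts of the mitochondrial ribosome. They were taken by symbol, as every gene of the count table named Mrpl or Mrps followed by a number and, in some, a letter a, b or c. The rule uses no measured value. It gave 77 genes of the 24421 in the table, 48 named for the large subunit and 29 for the small subunit, and all 77 passed the filter on low counts that left 14497 genes for testing. The mitochondrial ribosome translates the few mRNAs that the mitochondrial genome encodes, all of them for subunits of the respiratory chain and the ATP synthase. Its RNA comes from the mitochondrial genome, but all its proteins are encoded in the nucleus, translated in the cytosol and imported. Some descend from bacterial ribosomal proteins, and others are found only in mitochondria.

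The levels come from polyA RNA-seq of mouse E14 embryonic stem cells, a male line, that carried a dCas_Alkbh5 construct. Alkbh5 erases m6A, a methyl mark on RNA. The 12 libraries form 3 groups of 4, which differ in the transfected guide RNA: a control guide labelled NT, Mycn-gRNA2 or Mycn-gRNA3. Both Mycn-gRNA2 and Mycn-gRNA3 are directed at Mycn, a MYC-family factor that promotes growth. All 3 groups share the construct, the serum and LIF medium, blasticidin selection at 8 µg/mL for 3 days and then 5 days in 200 nM INK128, an mTOR inhibitor. No cells without the construct or without INK128 were among these libraries, and the labels do not say which promoter drives the construct, whether the line is 1 clone or whether replicates are separate cultures. The p-values therefore rest on the spread among these 12 libraries, and that spread may be technical.

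Libraries held 17248564 to 33819855 reads on endogenous genes, and 1.03% to 1.61% of all reads fell on ERCC spike-in RNAs, which were added to RNA from 200000 cells per sample. Levels are given as CPM, read counts scaled to a common library size. Mycn had 141 ± 4.17 CPM in the NT group (SD, n = 4), against 236 ± 26.7 in the Mycn-gRNA2 and 276 ± 16.7 in the Mycn-gRNA3 group, higher in all 8 guide libraries than in any NT library. The NT libraries also stood apart in the summed level of 4 Y chromosome genes, 0.0448 to 0.180 CPM against 32.4 to 83.7 CPM in the guide libraries. All 8 embryonic stem cell markers on a list were detected in each group. With both guides 3 of them were called lower against NT (edgeR). Their summed level ran from 4427 to 4954 CPM for NT, 3457 to 4122 for Mycn-gRNA2 and 4154 to 4241 for Mycn-gRNA3. Of 9 primitive endoderm markers, 6 were called higher and 1 lower, and their sum ran from 134 to 189 CPM for NT, 187 to 216 for Mycn-gRNA2 and 195 to 216 for Mycn-gRNA3. The sum of 8 fibroblast markers ran from 2.33 to 3.09, from 4.95 to 5.80 and from 3.99 to 6.15 CPM, with Postn and Lum at 0 in NT. Of the 4 fibroblast markers that passed the filter on low counts, 3 were called higher with both guides and 0 lower. Every comparison with NT below carries these differences between the NT cells and the others, which cannot be told apart from the guide. In such bulk samples, fewer cells of a type and less RNA per cell cannot be told apart either.

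Levels per kilobase used the gene length given in the count table, which need not be that of the transcript present. The 77 genes spanned 3.81 to 86.8 RPKM (CPM per kilobase) in NT. The median was 26.9 for the large and 24.4 for the small subunit. Mrpl42, a protein of the large subunit found only in mitochondria, had the highest level, 86.8 ± 6.00 RPKM (SD, n = 4). The next in order were Mrps18b at 62.8 ± 2.25, Mrps5 at 56.4 ± 1.52, Mrpl18 at 55.1 ± 5.80 and Mrpl12 at 51.0 ± 2.54 RPKM. Mrps5 and Mrpl18, neighbours in that order, differed by less than their spread. The lowest levels were those of Mrps25, 3.81 ± 0.356 RPKM, Mrpl41, 5.17 ± 0.781, and Mrpl57, 6.07 ± 0.349. Their lengths in the count table were 6065, 2423 and 2321 bases, against a median of 1053 for the 77 genes. Whether such lengths account for the low levels was not tested. The exons of Mrps25 overlap those of Nr2c2 on the other strand over 58.3% of its length, and those of Mrpl41 overlap Dph7 over 41.4%. Reads of such pairs cannot be separated, because the sources used here do not give the strand setting of the counting. In all, 10 of the 77 genes share exon bases with another gene. The smallest small-subunit level after Mrps25 was that of Mrps14, a counterpart of bacterial S14, at 14.2 ± 1.88 RPKM.

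Added together, the transcripts of both subunits took a larger part of the transcriptome with the Mycn guides. The 48 large-subunit genes summed to 1684, 1690, 1594 and 1588 CPM in NT replicates 1 to 4. The sums were 1682, 1851, 1879 and 1816 CPM with Mycn-gRNA2 and 1735, 1897, 1981 and 1879 CPM with Mycn-gRNA3. Only the first Mycn-gRNA2 library lay within the NT range, and the other 7 guide libraries lay above it. The group means were 1639 ± 55.5, 1807 ± 87.1 and 1873 ± 102 CPM (SD, n = 4 each). The 29 small-subunit genes summed to 929, 922, 894 and 876 CPM with NT. They summed to 955, 993, 1011 and 1024 CPM with Mycn-gRNA2 and to 968, 1052, 1074 and 1034 CPM with Mycn-gRNA3, and here all 8 guide libraries lay above every NT library. In the first Mycn-gRNA2 library this holds for the sum and not for the typical gene. Its median log2 ratio to the NT mean was -0.19 over the small-subunit and -0.01 over the large-subunit genes, while that of Mrps2 was 0.90. The small-subunit means were 905 ± 24.7, 996 ± 30.04 and 1032 ± 45.6 CPM. The ratio of the large-subunit to the small-subunit sum was 1.81 ± 0.0204 for NT, 1.81 ± 0.0550 for Mycn-gRNA2 and 1.81 ± 0.0227 for Mycn-gRNA3. The 77 genes together held 0.254%, 0.278% and 0.294% of endogenous reads in the 3 groups. As a sum over chosen genes, these levels were given no test.

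**Figure D1:**
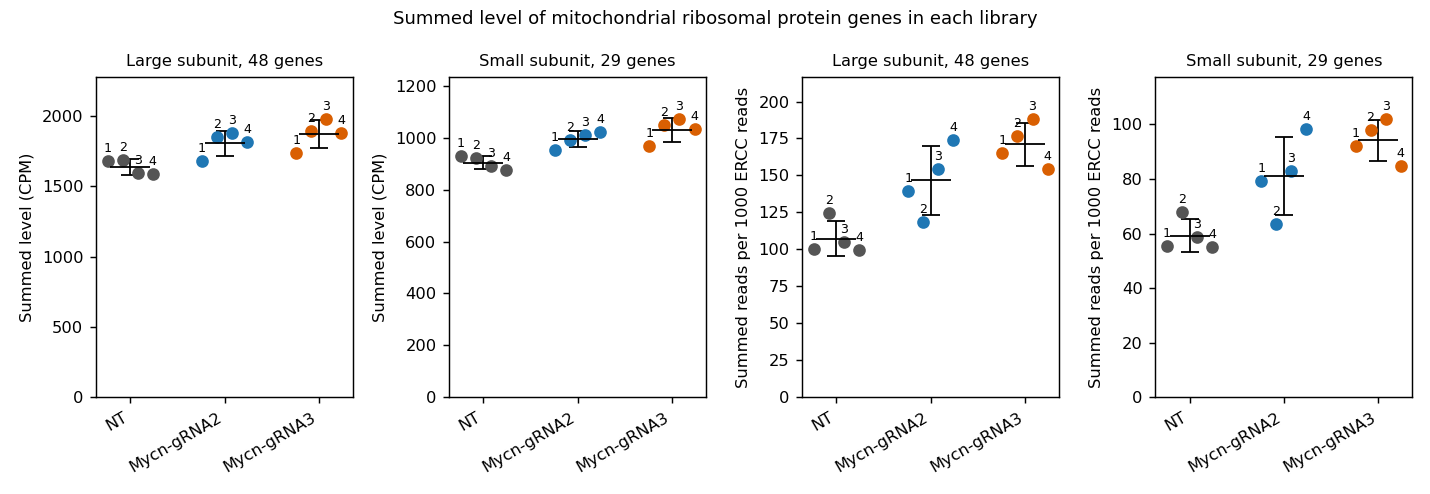
Summed level of the 48 large-subunit and the 29 small-subunit genes in each library, in CPM (left pair) and in reads per 1000 ERCC reads (right pair). Points are libraries with their replicate number, horizontal lines are group means and bars are SDs (n = 4); the large-subunit NT libraries sit between 1588 and 1690 CPM, and of the guide libraries only Mycn-gRNA2 replicate 1 lies in that range.

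Gene by gene and relative to the transcriptome, 23 of the 77 genes rose with both guides against NT and none fell (edgeR quasi-likelihood test, adjusted p under 0.05). Among all genes tested, 14.9% were called higher and 13% lower. At an unadjusted p under 0.05, 34 members were higher and 2 lower. The share of all genes at an unadjusted p was not counted, here or below. DESeq2 called 26 members higher and 0 lower, beside 13.5% and 11.7% of all genes. The fold change was above 0 for 65 members and below 0 for 12, with a median of 0.16 on the log2 scale, beside -0.00 for all genes. The calls were 15 of 48 for the large subunit, with a median of 0.17, and 8 of 29 for the small subunit, with a median of 0.16. Members with a counterpart in bacteria had 13 calls of 46, with a median of 0.17, and those found only in mitochondria had 10 of 30, also with a median of 0.17. Counting without chromosomes 1 and 8, whose genes had medians of -0.13 and -0.12, left 21 calls of 70. All 8 guide libraries lay above every NT library for 9 of the 77 members, against 8.55% of all genes, and below every NT library for 0 members, against 6.87%.

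The number of calls turned on single libraries. Without Mycn-gRNA2 replicate 1 it was 45 higher and 2 lower, where 21.9% of all genes were called higher and 20.2% lower. Without NT replicate 3 it was 14 (11.3% of all genes), and without NT replicate 4 it was 13 (11.1% of all genes). In replicates 1 and 2 alone, 0 members were called in either direction, beside 1.04% of all genes higher and 0.186% lower, and the members' median was 0.09. In replicates 3 and 4 alone, 46 were called higher and 0 lower, beside 22.7% and 20.9% of all genes, with a median of 0.25. Of the 23 calls, 12 held whichever library was left out.

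**Figure D2:**
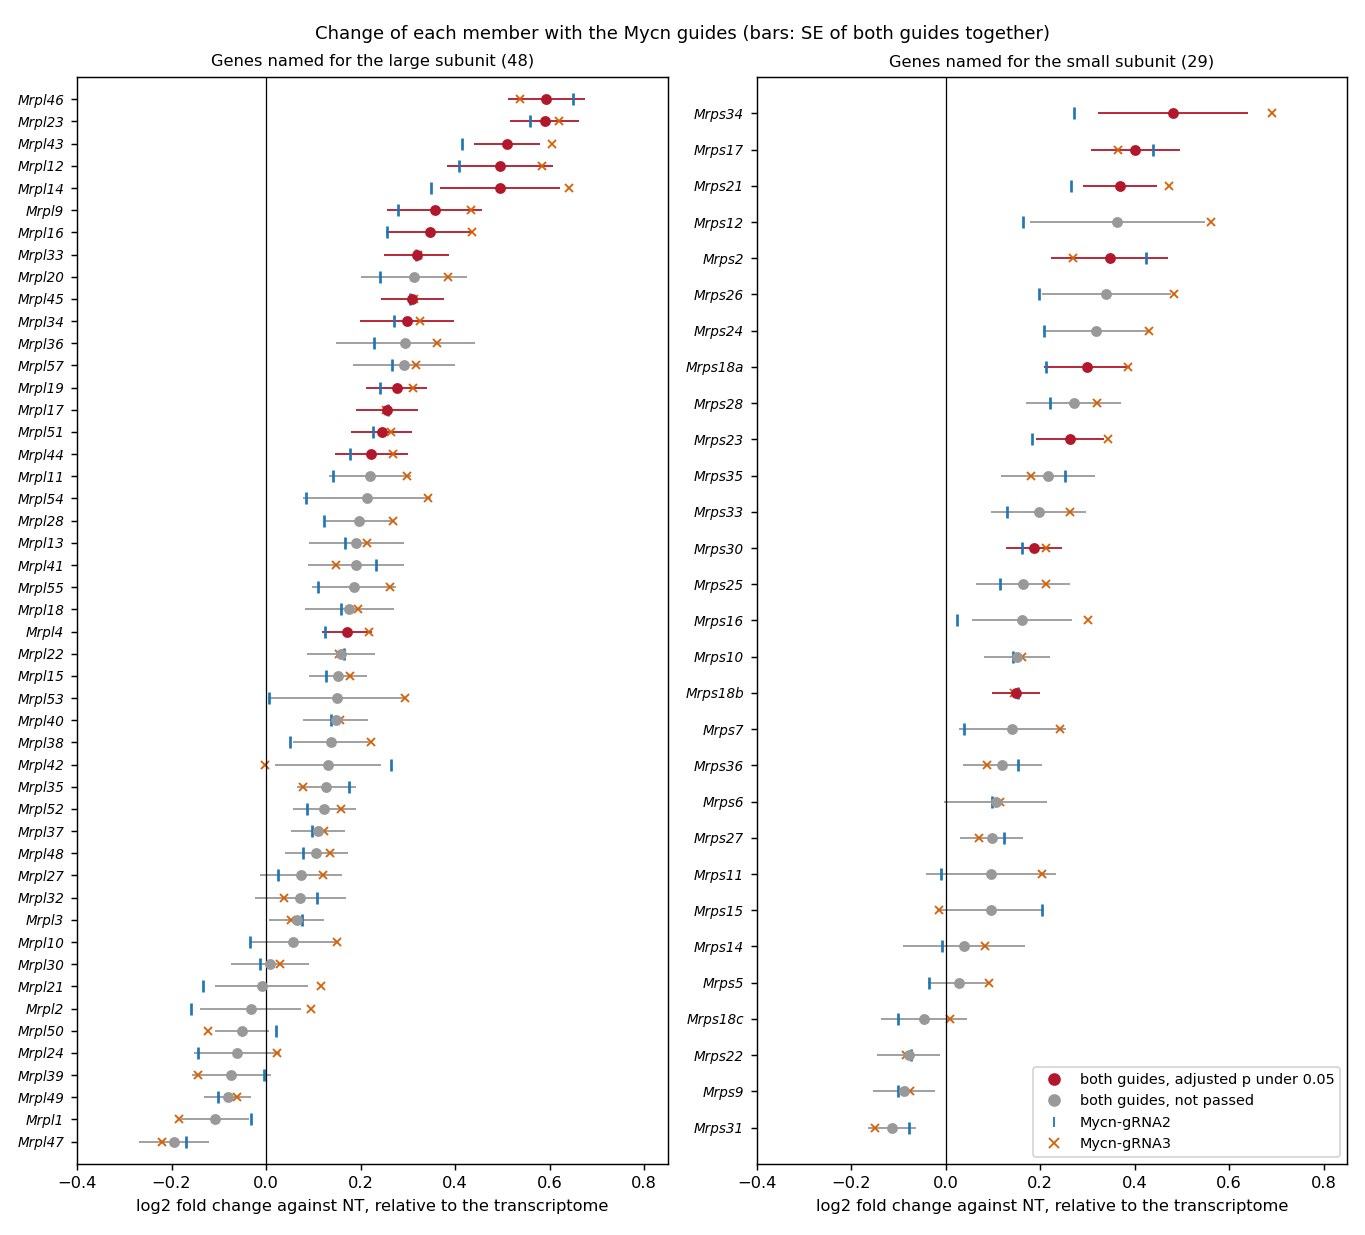
Log2 fold change of each member against NT relative to the transcriptome, large-subunit genes on the left and small-subunit genes on the right, in order of the change with both guides. Circles with bars give both guides together with the SE, dark red where the edgeR adjusted p was under 0.05, and vertical ticks and crosses give Mycn-gRNA2 and Mycn-gRNA3; changes run from -0.19 for Mrpl47 to 0.59 for Mrpl46.

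In the large subunit, the lowest adjusted p belonged to Mrpl23 (mm10, chromosome 7, positions 142533117 to 142540742), a counterpart of bacterial L23, which sits beside the tunnel through which the new protein leaves. It stood at 13.4, 16.4, 15.2 and 16.1 CPM in NT replicates 1 to 4, at 21.3, 21.6, 22.8 and 24.3 with Mycn-gRNA2 and at 23, 22.4, 25.0 and 23.5 with Mycn-gRNA3. All 8 guide libraries lay above every NT library, the guide groups overlapped each other, and it rose by 0.59 (log2 fold change, as for every change given below; SE 0.0729, edgeR adjusted p = 7.24e-05). Mrpl46 (chromosome 7, positions 78775341 to 78783089), a mitochondria-specific protein of the central protuberance, stood at 21.2, 20.05, 18.6 and 20.2 CPM with NT. It stood at 36.9, 27.8, 31.3 and 29.4 CPM with Mycn-gRNA2 and at 26.4, 29.9, 30.8 and 28.9 with Mycn-gRNA3. All guide libraries lay above all NT libraries, with the first Mycn-gRNA2 library highest, and Mrpl46 rose by 0.59 (SE 0.0805, edgeR adjusted p = 0.000147). Mrpl43 (chromosome 19, positions 45005014 to 45006442), also specific to mitochondria, ranged from 27.7 to 29.7 CPM for NT, from 34.1 to 42.4 for Mycn-gRNA2 and from 40.7 to 45.4 for Mycn-gRNA3. It rose by 0.51 (SE 0.0694, edgeR adjusted p = 0.00015), and again no guide library reached down to the NT range.

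Mrpl12 (chromosome 11, positions 120484669 to 120488754) forms the flexible stalk that recruits translation factors to the ribosome. It stood at 50.5, 50.5, 46.2 and 46.5 CPM with NT, at 44.98, 69.9, 71.2 and 70.9 with Mycn-gRNA2 and at 62.6, 72.2, 81.2 and 74.2 with Mycn-gRNA3. The first Mycn-gRNA2 library lay below every NT library and the other 7 guide libraries lay above all of them. Mrpl12 rose by 0.50 (SE 0.112, edgeR adjusted p = 0.00516). Mrpl14, a protein of the face that meets the small subunit, showed the same arrangement of libraries at a lower level. It had 7.16 to 8.30 CPM for NT, 6.74 to 12.3 for Mycn-gRNA2 and 11.5 to 13.0 for Mycn-gRNA3, a rise of 0.49 (SE 0.127, edgeR adjusted p = 0.0105). Mrpl16, a counterpart of bacterial L16 near the tRNA sites, ranged from 24.3 to 27.8 CPM for NT, 23.7 to 34.7 for Mycn-gRNA2 and 32.3 to 36.5 for Mycn-gRNA3, and rose by 0.35 (edgeR adjusted p = 0.0126).

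Several large-subunit genes rose by a smaller and more even amount. Mrpl45, which anchors the ribosome to the inner membrane at the tunnel exit, had 54.9 to 65.3 CPM for NT, 70.3 to 76.6 for Mycn-gRNA2 and 65.3 to 81.3 for Mycn-gRNA3, a rise of 0.31 (SE 0.0669, edgeR adjusted p = 0.00393). Mrpl33, a small counterpart of bacterial L33, had 12.3 to 14.6 CPM for NT, 15.3 to 17.3 for Mycn-gRNA2 and 16.02 to 17.3 for Mycn-gRNA3, a rise of 0.32 (SE 0.0690, edgeR adjusted p = 0.00392). Mrpl19, a counterpart of bacterial L19 at the subunit interface, rose by 0.28 (edgeR adjusted p = 0.00599), with 22.9% of its exon bases shared with Gcfc2. Mrpl17, a counterpart of bacterial L17 near the tunnel exit, rose by 0.26 (edgeR adjusted p = 0.0108), a call lost without NT replicate 3, where its adjusted p was 0.0514.

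In the small subunit, Mrps21 (chromosome 3, positions 95862652 to 95870619), a counterpart of bacterial S21, had the lowest adjusted p. It stood at 17.1, 19.6, 17.0 and 17.1 CPM with NT, at 19.8, 21.0, 21.9 and 22.2 with Mycn-gRNA2 and at 21.2, 23.8, 27.5 and 25.6 with Mycn-gRNA3. The NT libraries lay below both guide groups, which overlapped each other, and it rose by 0.37 (SE 0.0790, edgeR adjusted p = 0.00367). Mrps17, an rRNA-binding protein related to bacterial S17, stood at 26.8, 24.8, 27.2 and 25.7 CPM with NT. With Mycn-gRNA2 it stood at 44.0, 30.1, 33.8 and 33.6 CPM, and with Mycn-gRNA3 at 29.7, 34.3, 37.5 and 33.0, all above NT. It rose by 0.40 (SE 0.0942, edgeR adjusted p = 0.00628).

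Mrps23 and Mrps34 are found only in mitochondria, and Mrps34 is needed in mice for a stable small-subunit rRNA. Mrps23 rose by 0.26 (SE 0.0717, edgeR adjusted p = 0.0143), from 25.5 to 29.1 CPM with NT to 27.7 to 35.2 with Mycn-gRNA2 and 33.2 to 36.8 with Mycn-gRNA3. Without NT replicate 4 its adjusted p was 0.0614. Mrps34 stood at 24.01, 26.1, 22.3 and 19.7 CPM with NT, at 15.8, 28.3, 31.6 and 35.4 with Mycn-gRNA2 and at 38.7, 37.6, 38.0 and 34.3 with Mycn-gRNA3. Its first Mycn-gRNA2 library was the lowest of all 12, while the Mycn-gRNA3 libraries lay together above NT. Mrps34 rose by 0.48 with both guides (SE 0.159, edgeR adjusted p = 0.0373), and leaving out any of 9 libraries ended that call, with adjusted p up to 0.121.

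Some names do not match the place of the protein. Of the 3 genes named for bacterial S18, the product of Mrps18a sits in the large subunit, and those of Mrps18b and Mrps18c sit in the small subunit, as known from human ribosome structures. Mrps18a had 20.9 to 21.7 CPM for NT, 19.6 to 28.3 for Mycn-gRNA2 and 24.3 to 29.96 for Mycn-gRNA3, and rose by 0.30 (SE 0.0900, edgeR adjusted p = 0.0237). That call was lost when NT replicate 1, 3 or 4 was left out, with edgeR adjusted p up to 0.0643. Mrps18b had 63.5 to 69.2, 71.9 to 76.0 and 67.7 to 77.1 CPM and rose by 0.15 (SE 0.0511, edgeR adjusted p = 0.0433), a call that did not hold without any of 9 libraries. Mrps18c had 18.8 to 24.1, 16.4 to 23 and 21.6 to 23.2 CPM and a fold change of -0.05 (SE 0.0913, edgeR adjusted p = 0.742). Mrps30, the other such protein of the large subunit, rose by 0.19 (SE 0.0590, edgeR adjusted p = 0.0301), a call lost without any of 5 libraries. The product of Mrps36 is a subunit of the oxoglutarate dehydrogenase complex; its fold change was 0.12 (SE 0.0841, edgeR adjusted p = 0.313). With Mrps18a and Mrps30 counted in the large subunit and Mrps36 left out, 17 of 50 large-subunit genes and 6 of 26 small-subunit genes rose.

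The genes at the other end of the range did not pass the test in either direction. Mrpl47, a counterpart of bacterial L29, stood at 30.3, 27.5, 27.6 and 24.4 CPM with NT. It stood at 24.6, 26.6, 24.8 and 21.9 CPM with Mycn-gRNA2 and at 21.1, 25.0, 23.6 and 24.5 with Mycn-gRNA3, so that the groups overlapped. Its fold change was -0.19 (SE 0.0749, edgeR adjusted p = 0.0676). It passed the threshold as lower without Mycn-gRNA2 replicate 1 (-0.20, edgeR adjusted p = 0.0391), without Mycn-gRNA2 replicate 2 (-0.22, adjusted p = 0.0457), without NT replicate 4 (-0.25, adjusted p = 0.0414) and with a correction for gene length (-0.26, adjusted p = 0.0182). Mrps31, specific to mitochondria, had 50.4 to 54.2 CPM for NT, 47.0 to 51.6 for Mycn-gRNA2 and 45.7 to 49.1 for Mycn-gRNA3, a fold change of -0.11 (SE 0.0504, edgeR adjusted p = 0.109). Without Mycn-gRNA2 replicate 1 its fold change was -0.12 with an adjusted p of 0.0399. Mrpl1, which forms the stalk where spent tRNA leaves, had 34.5 to 37.3, 29.5 to 39.5 and 30.9 to 33.4 CPM in the 3 groups (-0.11, SE 0.0724, edgeR adjusted p = 0.291). Mrps9, Mrpl49 and Mrps22 had fold changes of -0.09, -0.08 and -0.08 with adjusted p of 0.336, 0.250 and 0.414.

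With Mycn-gRNA2 alone, 9 members were called higher and 0 lower against NT, beside 10.1% and 7.06% of all genes. The fold change was above 0 for 61 of the 77 and the median was 0.14. At an unadjusted p under 0.05, 22 were higher and 0 lower, and DESeq2 called 12 higher and 0 lower, beside 9.83% and 7.22% of all genes. Without the first Mycn-gRNA2 library 31 were called higher, beside 15.2% of all genes. Without NT replicate 4 there were 4 calls, beside 7.46% of all genes, and without Mycn-gRNA2 replicate 3 there were 5, beside 7.03%. The 9 genes were Mrpl12, Mrpl17, Mrpl19, Mrpl23, Mrpl33, Mrpl43, Mrpl45, Mrpl46 and Mrps17.

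With Mycn-gRNA3 alone, 26 members were called higher and 0 lower, beside 14.8% and 12.2% of all genes. The fold change was above 0 for 67 and the median was 0.21. At an unadjusted p under 0.05, 37 were higher and 3 lower, and DESeq2 called 28 higher and 1 lower, beside 13.8% and 11.9% of all genes. The 9 genes called with Mycn-gRNA2 were all among these 26, in comparisons that share the NT libraries. The largest change was that of Mrps34, 0.69 (SE 0.180, edgeR adjusted p = 0.0122), and Mrpl14 followed with 0.64 (SE 0.143, edgeR adjusted p = 0.00536). Without Mycn-gRNA2 replicate 1, which enters the shared estimate of the spread, 43 were called higher, beside 21.9% of all genes, and 3 lower (Mrpl47, Mrpl1 and Mrps31), beside 19.2%. Without NT replicate 4, 15 were called higher and 1, Mrpl47, lower, beside 11.1% and 8.48% of all genes. Without Mycn-gRNA3 replicate 2 or replicate 3 there were also 15 higher, beside 11.7% and 10.8% of all genes.

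Between the guides, no member passed the test relative to the transcriptome, and neither did any other gene (0% of all genes in either direction). At an unadjusted p under 0.05, 5 members were higher and 1 lower with Mycn-gRNA3 than with Mycn-gRNA2. DESeq2 called 0 members, beside 0.00474% of all genes higher and 0% lower. The fold changes ran from -0.27 for Mrpl42 to 0.42 for Mrps34 with a median of 0.06 and a median SE of 0.0995, and 56 were above 0. With the length correction the median was 0.0097 and 39 were above 0, and with a library left out it ran from 0.028 to 0.10. The lowest edgeR adjusted p of a member was 0.549. These p-values do not show that the guides act alike.

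Per ERCC read the scale itself shifts, since endogenous reads per ERCC read were 65.5 ± 4.66 in the NT group, against 81.9 ± 12.4 for Mycn-gRNA2 and 90.2 ± 5.13 for Mycn-gRNA3 (n = 4 each, ± SD). The spike-in went in after extraction, so unequal cell numbers or RNA yields also enter these values, and their part was not tested. On this scale the median of all genes was 0.39 with both guides, and 74 of 77 members rose and 0 fell, beside 56.4% of all genes called higher and 0.931% lower. The members' median was 0.56. The 48 large-subunit genes summed to 107 ± 11.7 reads per 1000 ERCC reads for NT, 147 ± 23.7 for Mycn-gRNA2 and 171 ± 14.7 for Mycn-gRNA3. The 29 small-subunit genes summed to 59.2 ± 6.01, 81.0 ± 14.3 and 94.3 ± 7.49. All 8 guide libraries lay above every NT library for 12 members, beside 11.5% of all genes.

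Mrpl46 had the largest change per ERCC read, from 1.31 ± 0.115 reads per 1000 ERCC reads with NT to 2.56 ± 0.559 with Mycn-gRNA2 and 2.65 ± 0.249 with Mycn-gRNA3. That is a rise of 0.99 with both guides (SE 0.149, edgeR adjusted p = 2.12e-06). The 3 members that did not pass were Mrpl47 (0.20, edgeR adjusted p = 0.199), Mrps31 (0.28, adjusted p = 0.0648) and Mrpl1 (0.28, adjusted p = 0.0633). Mrpl47 stood at 1.79 ± 0.204, 1.97 ± 0.181 and 2.15 ± 0.161 reads per 1000 ERCC reads in the 3 groups. Mrps9, Mrpl49 and Mrps22 passed by a small margin, with rises of 0.30, 0.31 and 0.32 (edgeR adjusted p of 0.0421, 0.0445 and 0.0468).

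Per ERCC read the guides taken apart gave 45 members higher and 0 lower with Mycn-gRNA2, beside 26.3% and 0.517% of all genes, and 73 higher and 0 lower with Mycn-gRNA3, beside 60.7% and 0.504%. The Mycn-gRNA2 count moved with single libraries, as did the share of all genes. It was 13 without NT replicate 1, 22 without NT replicate 3 and 18 without NT replicate 4, beside 12.4%, 16.6% and 15.2% of all genes. Without Mycn-gRNA2 replicate 3 it was 21 and without replicate 4 it was 15, beside 17% and 13%. With the replicate number as a block it was 30, beside 21.6%. Between the guides 0 members were called, beside 0.0069% of all genes higher and 0% lower. At an unadjusted p under 0.05, 20 members were higher with Mycn-gRNA3 and 0 lower, and the share of all genes was not counted. On this scale the median change of all genes between the guides was 0.16, and that of the members 0.23. Limma on the deposited log2 values called 0 members, beside 0.0083% of all genes higher and 0% lower. Without Mycn-gRNA2 replicate 4 edgeR called 24 higher, beside 13.6% of all genes.

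**Figure D3:**
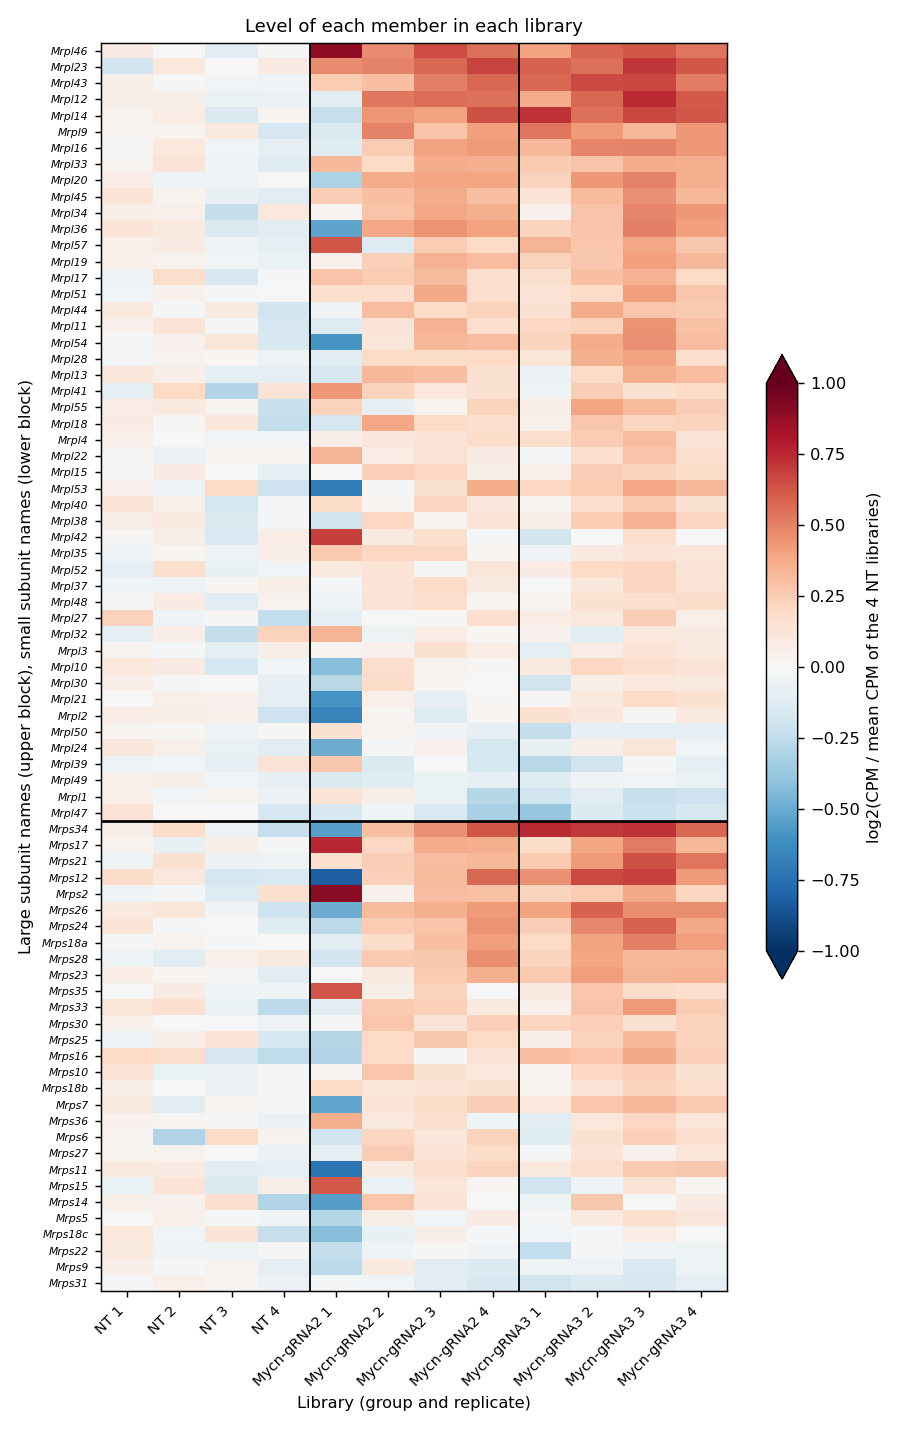
Level of each member in each library as log2 of its CPM over the mean CPM of the 4 NT libraries, large-subunit genes in the upper block and small-subunit genes in the lower block, each in order of the change with both guides. Red is above and blue below the NT mean; the column of Mycn-gRNA2 replicate 1 holds both strong reds and strong blues, with 26 members above every NT library and 32 below.

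Mycn-gRNA2 replicate 1 departed from the other guide libraries across the members and not by a common shift. It lay above every NT library for 26 members and below every NT library for 32, where the other 7 guide libraries lay above for 36 to 63 members and below for 3 to 12. It was the lowest of the 12 libraries for 31 members and the highest for 15. Its deviation ran with gene length in the direction opposite to the other guide libraries, with a Spearman correlation across the 77 genes of 0.209 against -0.283 to -0.0791 in the other 7. The median log2 ratio to the NT mean was -0.17 for the 31 members under 1 kb, -0.04 for the 34 of 1 to 2 kb and 0.20 for the 12 of 2 kb and over. In the other 3 Mycn-gRNA2 libraries these medians were between 0.14 and 0.26. The coefficient of variation over the 4 libraries had a median over members of 12.4% with Mycn-gRNA2, 7.08% with NT and 6.13% with Mycn-gRNA3, and of 6.11% with Mycn-gRNA2 once replicate 1 was left out. Why that library differs was not tested.

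**Figure D4:**
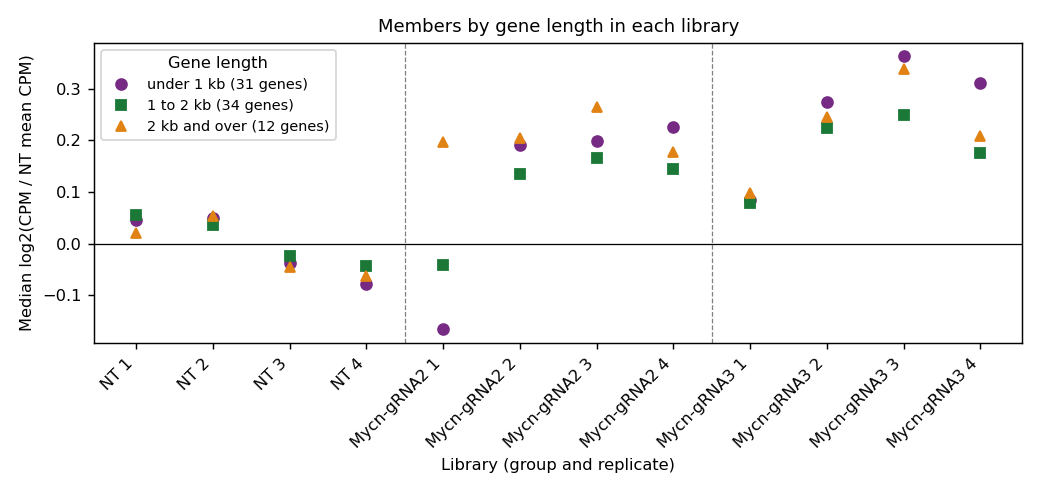
Median log2 ratio of CPM to the NT mean in each library for members under 1 kb (circles, 31 genes), of 1 to 2 kb (squares, 34 genes) and of 2 kb and over (triangles, 12 genes). In Mycn-gRNA2 replicate 1 the medians run from -0.17 for the shortest to 0.20 for the longest genes; in the other 7 guide libraries all are above 0, and in Mycn-gRNA3 replicate 4 they are 0.31, 0.18 and 0.21.

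The members are short, with a median length of 1053 bases against 2891 for all genes tested, and short genes as a whole stood slightly higher with the guides. Among genes under 1 kb, the median change with both guides was 0.18 for 31 members and 0.08 for all 1112 genes. For 1 to 2 kb it was 0.15 for 34 members and 0.04 for all 3159 genes, for 2 to 4 kb 0.22 for 7 members and -0.00 for all 5804, and over 4 kb 0.16 for 5 members and -0.04 for all 4422. The members' median was above that of all genes in each of the 4 length classes, the last of which hold few members. Under 1 kb, the median of all genes was 0.04 with Mycn-gRNA2 alone and 0.12 with Mycn-gRNA3 alone. That of the members was 0.16 and 0.29. With a correction for gene length in each library, 19 members were called higher and 1, Mrpl47, lower, beside 15.3% and 12.1% of all genes. For Mycn-gRNA2 alone the correction gave 11 higher and 0 lower, beside 11% and 6.95% of all genes. For Mycn-gRNA3 alone it gave 17 higher and 2 lower, beside 14.9% and 11.8%.

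Sequences before the start sites were searched for motifs of factors known from such genes. Of the 77 genes, 68 have an entry in the RefSeq promoter table (GRCm38.p6) and 65 have a start site there within 500 bases of the one in the count table. Windows ran from 250 bases before to 50 after the start, and motifs were searched on both strands. CACGTG, the E-box that MYC proteins bind, was in 4 of 65 member windows (6.15%), beside 10.3% of 10508 windows of tested genes, and in 0 of the 18 windows of members that rose. TGCGCA, the core of the motif of NRF1, a regulator of nuclear genes for mitochondria, was in 19 (29.2%), beside 14.2%, and in 8 of the 18. CCGGAAG, a motif of ETS-family factors, was in 22 (33.8%), beside 17.7%, and in 7 of the 18. These matches are descriptions of the letters and do not show binding.

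Head-to-head neighbours within 1000 bases were found for 27 members. Of the 24 such neighbours that are no members and were tested, 1 rose and 2 fell, beside 14.9% and 13% of all genes. Next to the members that rose, 1 of 6 rose, Tmem63b beside Mrpl14 (0.38, edgeR adjusted p = 0.00171). In the count table's gene models, Mrpl46 and Mrps11 start 41 bases apart on opposite strands. The 41 bases between them, at chr7:78783090-78783130 on the minus strand of GRCm38.p6, read from Mrps11 towards Mrpl46. They are shown because both genes belong to the mitochondrial ribosome and start at its ends; they hold none of the 3 motifs.
Mrps11 to Mrpl46: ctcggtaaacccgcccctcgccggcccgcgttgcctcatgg
While Mrpl46 rose, Mrps11, a counterpart of bacterial S11 chosen here after its values were seen, stood at 16.1, 15.96, 14.04 and 14.2 CPM with NT, at 9.08, 16.1, 17.1 and 17.6 with Mycn-gRNA2 and at 16.2, 17.0, 18.1 and 18.2 with Mycn-gRNA3. Its fold change was 0.10 (SE 0.137, edgeR adjusted p = 0.634). Without Mycn-gRNA2 replicate 1, where Mrps11 was at its lowest, it was 0.19 (edgeR adjusted p = 0.0329), beside 0.55 for Mrpl46 (adjusted p = 1.01e-05). In replicates 1 and 2 alone it was -0.15 (adjusted p = 0.817) and in replicates 3 and 4 alone 0.33 (adjusted p = 0.00532). The difference between both genes was not tested.

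Mrpl43 starts 115 bases from Peo1, which encodes the helicase of mitochondrial DNA and was also chosen after its values were seen. The stretch between them, at chr19:45006443-45006557 on the minus strand, reads from Peo1 towards Mrpl43 and holds the ETS motif at both sites in capitals.
Peo1 to Mrpl43: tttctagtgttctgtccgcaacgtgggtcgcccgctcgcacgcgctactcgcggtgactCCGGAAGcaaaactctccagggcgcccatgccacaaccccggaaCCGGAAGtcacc
Peo1 had a fold change of 0.04 (SE 0.0610, edgeR adjusted p = 0.654) beside the rise of 0.51 for Mrpl43. The 250 bases before the RefSeq starts of Mrpl45, at chr11:97315466-97315715 on the plus strand, and of Mrpl23, at chr7:142532782-142533031 on the plus strand, hold the NRF1 core, in capitals, at 2 sites and at 1 site. The RefSeq start of Mrpl23 lies 85 bases before the one in the count table. Both stretches were chosen because they hold this core, and the stretches before Mrpl12, Mrpl14 and Mrpl33 hold none of the 3 motifs.
Mrpl45: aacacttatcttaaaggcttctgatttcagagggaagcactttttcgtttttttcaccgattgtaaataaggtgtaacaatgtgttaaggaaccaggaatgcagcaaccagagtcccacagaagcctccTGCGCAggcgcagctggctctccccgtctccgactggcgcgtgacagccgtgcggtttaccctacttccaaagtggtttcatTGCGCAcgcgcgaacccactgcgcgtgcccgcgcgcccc
Mrpl23: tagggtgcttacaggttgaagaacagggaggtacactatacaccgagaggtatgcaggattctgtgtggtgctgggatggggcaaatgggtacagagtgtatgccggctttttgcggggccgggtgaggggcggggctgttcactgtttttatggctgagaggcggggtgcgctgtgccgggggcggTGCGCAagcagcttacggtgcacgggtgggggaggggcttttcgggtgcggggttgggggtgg

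Other genes around the mitochondrial ribosome were taken from lists by function, for both guides against NT relative to the transcriptome, where 14.9% of all genes were higher and 13% lower. Of 6 further ribosomal proteins outside the naming pattern, 1 rose and 0 fell: Chchd1, a small-subunit protein, with 0.19 (edgeR adjusted p = 0.0214). Of 25 assembly and rRNA modification factors tested, 0 rose and 2 fell, a smaller share than among all genes in either direction. Mterf4, which takes part in joining the subunits, fell by 0.23 (edgeR adjusted p = 0.0109), and Mettl17, needed for small-subunit assembly, fell by 0.19 (edgeR adjusted p = 0.0422). Of 15 mitochondrial translation and insertion factors, 0 rose and 1, the initiation factor Mtif2, fell by 0.26 (edgeR adjusted p = 0.0208). The medians of these 3 lists were 0.08, 0.06 and 0.10.

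Among the products that mitochondrial translation joins, 5 of 15 nuclear subunits of the ATP synthase rose and 0 fell, with a median of 0.21. Atp5f1, the stalk subunit b, went from 167 ± 5.33 CPM with NT to 237 ± 11.9 with Mycn-gRNA2 and 244 ± 18.1 with Mycn-gRNA3, a rise of 0.52 (SE 0.0568, edgeR adjusted p = 2.82e-05). Atp5g3, a gene for the membrane ring, rose by 0.25 (edgeR adjusted p = 0.0139) and Atp5c1, the central stalk subunit, by 0.18 (edgeR adjusted p = 0.0229). Of 35 nuclear complex I subunits tested 0 passed in either direction, with 4 at an unadjusted p under 0.05 and a median of 0.08. Of 74 cytosolic ribosomal protein genes 4 rose and 0 fell, with a median of 0.08. They included Rps12 with a rise of 0.27 (edgeR adjusted p = 0.00506), Rpl36 with 0.28 (adjusted p = 0.0135) and Rpl41 with 0.49 (adjusted p = 0.0146). These shares, 29.9% for the members, 33.3% for the ATP synthase, 5.41% for the cytosolic ribosome and 0% for complex I, were not tested against each other. Transcripts encoded by the mitochondrial genome were not analysed here.

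**Figure D5:**
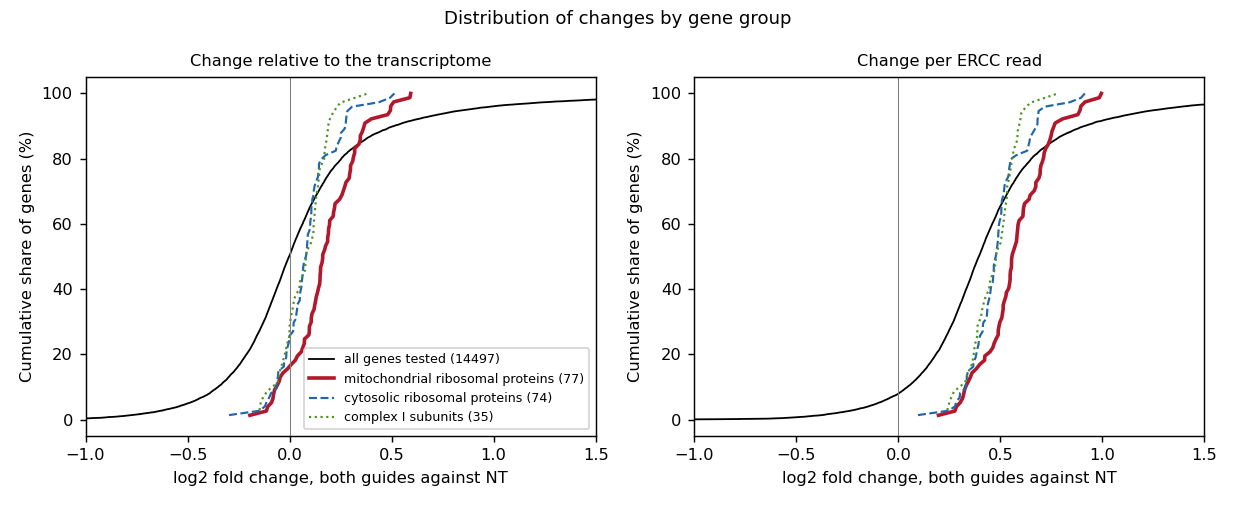
Cumulative share of genes by log2 fold change of both guides against NT, relative to the transcriptome on the left and per ERCC read on the right, for all 14497 genes tested, the 77 mitochondrial ribosomal protein genes, 74 cytosolic ribosomal protein genes and 35 complex I genes. Around its middle the curve of the members lies to the right of the others drawn, with a median of 0.16 on the left and 0.56 on the right. It spans a narrower range than that of all genes, a far larger set. The ATP synthase genes, with medians of 0.21 and 0.60, are not drawn.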

How the data were processed

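PolyA RNA of 12 samples was sequenced from a directional library kit. The authors deposited a table of raw read counts, with 24421 genes and 92 spike-in ERCC RNAs. The submitters' processing notes name Trim Galore 0.4.0, featureCounts, Subread 1.5.0, edgeR 3.32.1 and build mm10. The sources used here give no aligner, annotation release or strand setting. Their other deposited table covers 12042 genes in log2 units. Each value was found to be log2(count + 0.5) less 1 constant for that library. Apart from a common shift, these constants lie within 0.0015 of those from ERCC totals with TMM factors over the ERCC RNAs. They lie within 0.0475 of those from ERCC totals alone. The deposited values therefore served only as levels per ERCC read in an alternative test with limma 3.58.1.

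Gene counts of all 12 libraries entered 1 edgeR 4.0.16 fit under R 4.3.3 (robust quasi-likelihood test, a term per group, filterByExpr, 14497 genes, Benjamini-Hochberg adjustment over all of them, threshold 0.05). TMM factors over endogenous genes gave levels relative to the transcriptome, and CPM and RPKM use them. Library sizes set to ERCC totals gave levels per ERCC read. The procedures were tested on simulated data that held no length effect and no deviating library. For both guides against NT, 30% of 1.25-fold, 68% of 1.5-fold, 82% of 2-fold and 96% of 4-fold changes were recovered (50 genes each). Of 14192 unchanged genes, 7 were called. Alternatives were RLE size factors, DESeq2 1.42.0, no filter on low counts, only the groups compared, the replicate number as a block, an offset for gene length, each library left out, and replicates 1 and 2 or 3 and 4 alone. The members, lists, tests and naming rule were chosen with earlier results of these data known. The rule names up to 10 called members each way by adjusted p, up to 3 more each way per guide, up to 6 called between the guides, the 2 highest and 2 lowest by RPKM per subunit, 6 genes known for their place, the 6 lowest changes per ERCC read and up to 3 called genes each way per list.

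No replicate pair agreed within sampling noise: chi-square per degree of freedom was 8.57 or more, up to 72.8. Numbers were taken to pair libraries where all 4 same-numbered correlations of deviations were over 0.1 (9380 genes). They ran from 0.175 to 0.641 between the guide groups, from 0.0600 to 0.288 for NT with Mycn-gRNA3 and from -0.0818 to 0.360 for NT with Mycn-gRNA2. By that rule the number was taken to pair the guide groups, from the data and not from the labels. Different-numbered libraries of the guide groups ran from -0.644 to 0.471. Mycn-gRNA2 replicate 4 correlated more with Mycn-gRNA3 replicate 3 (0.471) than with Mycn-gRNA3 replicate 4 (0.175). The block changed no member's call between the guide groups.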

Additional observations from a re-analysis of the deposited data

Results flagged for a closer look

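In 6 of 111 groups of 4 libraries tested, the gap between the highest or lowest library and its nearest neighbour took more than 0.829 of the group's range. Chance gives such a gap in about 1 of 20 groups. In 2 of the 6 the library was Mycn-gRNA2 replicate 1, with Mrpl12 at 44.98 CPM beside 69.9 to 71.2 in the other 3 libraries of its group, and Mrps25 at 19.03 CPM beside 26.6 to 27.9. Mrps21 in NT replicate 2 stood at 19.6 CPM beside 17.0 to 17.1. In the Mycn-gRNA3 group, Mrpl1 in replicate 2 stood at 33.4 CPM beside 30.9 to 31.3, Mrps9 in replicate 3 at 46.3 CPM beside 49.5 to 49.6, and Mrps22 in replicate 1 at 21.9 CPM beside 25.1 to 25.7. The causes were not tested.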

How the results depend on the processing

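Members called higher with both guides relative to the transcriptome numbered 13 (without NT replicate 4) to 45 (without Mycn-gRNA2 replicate 1) when a library was left out, large-subunit genes 11 to 27 and small-subunit genes 2 to 18, and 0 to 2 were called lower. Of all genes, 11.1% to 21.9% were called higher and 8.76% to 20.2% lower in those fits. For Mycn-gRNA2 the range was 4 to 31, beside 7.03% to 15.2% of all genes. For Mycn-gRNA3 it was 15 to 43 with 0 to 3 lower, beside 10.8% to 21.9% of all genes higher and 7.45% to 19.2% lower. Per ERCC read the members' range was 13 to 65 with Mycn-gRNA2 and 0 to 24 between the guides, beside 12.4% to 53.6% and 0% to 13.6% of all genes. In replicates 1 and 2 alone all counts relative to the transcriptome were 0, and per ERCC read they were 5 with both guides (3 large, 2 small), 0 with Mycn-gRNA2, 27 with Mycn-gRNA3 and 5 between the guides. Of all genes, 7.6%, 2.79%, 19.2% and 3.57% were called higher per ERCC read in these 4 comparisons. In replicates 3 and 4 alone the members called higher were 46 with both guides (29 large, 17 small), 36 with Mycn-gRNA2 and 45 with Mycn-gRNA3, and 72 per ERCC read with Mycn-gRNA2. Of all genes, 22.7%, 17.7% and 21.4% were called higher, and 55.2% per ERCC read with Mycn-gRNA2. Fewer libraries enter these fits; the cause beyond that was not tested. Without a filter on low counts, 4 small-subunit genes were called higher with both guides, beside 10.1% of all genes. With only the groups compared in the fit, Mycn-gRNA3 gave 43 higher and 3 lower, beside 22.5% and 19.7% of all genes. With the length offset Mycn-gRNA3 gave 17 higher and 2 lower, beside 14.9% and 11.8% of all genes, and with both guides 1 was lower, beside 12.1%. With the replicate block and the length offset the lower counts were 2 and 1, beside 13.5% and 14.2% of all genes. DESeq2 called 1 lower with Mycn-gRNA3, beside 11.9% of all genes. Same-numbered NT and guide libraries did not all reach the correlation set for pairing, so the replicate block is no paired test there: it gave 26 higher with both guides, 10 with Mycn-gRNA2 and 28 with Mycn-gRNA3, and 66, 30 and 71 per ERCC read, and 9 of 12 libraries correlated best with their own number, a hint from the data. With the block, 16%, 11% and 16.3% of all genes were called higher, and 51%, 21.6% and 56.6% per ERCC read. Values that changed sign, none of them called where the sign differed, were those of Mrps5 (-0.011 with the length offset, -0.013 with block and offset, -0.052 in replicates 1 and 2), Mrps14 (-0.051 to 0.11 with a library left out, -0.023 in replicates 1 and 2), Mrps18c (-0.12 to 0.0010 with a library left out, 0.068 in replicates 3 and 4), Mrps22 (0.0059 in replicates 3 and 4), Mrps11 (-0.15 in replicates 1 and 2) and Peo1 (-0.024 in replicates 1 and 2). With RLE size factors every count stayed within 1.5 times the one reported.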
